A study of Mus musculus with 18 samples.

Results

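Csf2, Cd2, Card14 and H2-K2 are 4 genes of mucosal immunity that were chosen by name. Each is filed under the immune system in the authors' deposited table of fold changes, Card14 also under inflammation. Their rows were found by gene name in that table, which names 51 of the 6914 array features, and their intensities were read by feature number. All 4 belong to the 5021 features with a value on all 18 arrays. Their probes are A_51_P171075 for Csf2 (feature 38320), A_51_P126067 for Cd2 (feature 8561), A_51_P137611 for Card14 (feature 24326) and A_55_P2051334 for H2-K2 (feature 26642). The authors chose the 51 genes on these samples, so membership in their table is not independent evidence of a direction.

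Enterocytes, the absorptive epithelial cells of the gut, were scraped from the jejunum of BALB/cOlaHsd males, all aged 8 weeks when gavage began, and their RNA was hybridised to 1 Cy3-labelled Agilent array per mouse. Every animal ate standard chow and was gavaged each day for 20 days, and 3 animals of the 12 in a group were taken. The ADI group was given 9 pesticides together, each at its acceptable daily intake. The potato groups were given 30 mg of tuber flour with skin a day, which came from conventionally grown tubers for PC, organically grown tubers for PO, and tubers under storage conditions for PCS (conventional) and POS (organic). The control group (Ctr) was gavaged with water alone. Gavage and chow were thus common to all groups. The label of POS mouse 3 gives day 27, with 7 days of resilience, whereas the other labels and the study's design give day 20.

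Csf2 encodes GM-CSF, a growth factor that lymphoid and other cells release and that sustains granulocytes, macrophages and dendritic cells, including those of the gut wall. Cd2 encodes an adhesion receptor of T cells and natural killer cells that binds CD48 in mice and lowers the threshold for T cell activation. Card14 encodes a scaffold, known mainly from skin epithelium, that joins BCL10 and MALT1 into a complex that switches on NF-kB. H2-K2 lies in the K region of the mouse major histocompatibility complex. Class I molecules of that complex display peptides from inside the cell to CD8 T cells, but H2-K2 is annotated as a transcribed pseudogene in the GRCm38.p6 reference of the C57BL/6J strain. It has close class I relatives, and how far its probe reads their transcripts was not tested.

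Array brightness differed widely, and it bears on every value. The median intensity over the 5021 features was 250, 147 and 37 in ADI mice 1 to 3, 45, 103 and 68 in PC mice, 90, 5 and 370 in PO mice, 89, 159 and 507 in PCS mice, 149, 309 and 61 in POS mice, and 168, 184 and 256 in control mice. PO array 2 stands apart, with 84.2% of its values under 16. Levels are therefore given both as deposited and as the log2 intensity minus the median log2 intensity of the same array, called the centred level. Of 42 marker genes of gut cell types that were listed, 3 carry a name in the authors' deposited table, and of these Apoa1, an enterocyte apolipoprotein, and Cd2 have a value on every array. Apoa1 lay between the 95.5 and 98.4 percentile of the features on every array except PO array 2, where it lay at 84.6. Cd2 is thus the only lymphocyte marker that could be followed, and a change in the number of lymphocytes cannot be told apart from a change in Cd2 RNA per cell.

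Csf2 had intensities of 356, 557 and 1140 in ADI mice, 595, 873 and 283 in PC mice, 1438, 110 and 1218 in PO mice, 2062, 5350 and 457 in PCS mice, 905, 1552 and 662 in POS mice, and 320, 353 and 1056 in control mice. PCS mice 1 and 2 held the highest values of the series, while PCS mouse 3 lay within the control range. Of the 15 exposed mice, 6 were above all controls and 2 below all of them, and no exposed group was clear of the controls. The median feature had 3 mice above and 10 below all controls, and 7.67% of features had at least 6 above. In centred log2 levels Csf2 averaged 2.46 ± 2.27 in ADI mice, 2.96 ± 0.84 in PC mice, 3.39 ± 1.47 in PO mice, 3.15 ± 2.87 in PCS mice, 2.79 ± 0.58 in POS mice and 1.30 ± 0.64 in control mice (SD, n = 3 each). On that scale 11 of the 15 exposed mice lay above all controls, as many or more did for 11.9% of features, and the median feature had 4. PCS mouse 3 had the lowest Csf2 level of all mice, at -0.15.

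Cd2 had intensities of 664, 585 and 790 in ADI mice, 539, 664 and 271 in PC mice, 1071, 48 and 1450 in PO mice, 2263, 4937 and 1002 in PCS mice, 777, 1344 and 605 in POS mice, and 530, 445 and 970 in control mice. All 3 PCS mice were above all controls, although PCS mouse 3, at 1002, exceeded control mouse 3, at 970, only narrowly. Such a separation upward was seen in 3.17% of all features for PCS against Ctr. Cd2 averaged 2.61 ± 1.59 in ADI mice, 2.76 ± 0.80 in PC mice, 2.94 ± 0.85 in PO mice, 3.54 ± 2.22 in PCS mice, 2.60 ± 0.62 in POS mice and 1.62 ± 0.33 in control mice (centred log2, SD, n = 3 each). By centred level 13 of the 15 exposed mice lay above all controls, ADI mouse 1 lay within their range and PCS mouse 3 below it. The median feature had 4 of 15 mice above all controls on that scale, and 3.76% of features had at least 13.

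Card14 had intensities of 277, 395 and 777 in ADI mice, 347, 464 and 235 in PC mice, 1025, 52 and 1450 in PO mice, 2537, 3876 and 554 in PCS mice, 592, 919 and 535 in POS mice, and 171, 266 and 564 in control mice. PCS mice 1 and 2 were again the highest, and PCS mouse 3 lay just under control mouse 3. Card14 averaged 1.99 ± 2.18 in ADI mice, 2.30 ± 0.59 in PC mice, 2.95 ± 0.85 in PO mice, 3.19 ± 2.65 in PCS mice, 2.23 ± 0.81 in POS mice and 0.57 ± 0.56 in control mice (centred log2, SD, n = 3 each). By centred level 13 of 15 exposed mice lay above all controls, and the other two, ADI mouse 1 and PCS mouse 3, lay within their range. Over all features the median was 4 of 15 mice above all controls, and 3.76% of features had at least 13.

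H2-K2 was lower in most exposed mice than in control mice. Its intensities were 4183, 3629 and 846 in ADI mice, 512, 1331 and 2537 in PC mice, 2263, 14 and 11260 in PO mice, 1706, 2671 and 9001 in PCS mice, 3064, 6658 and 1611 in POS mice, and 4600, 5988 and 10045 in control mice. All ADI mice and all PC mice lay below all controls, as did 12 of the 15 exposed mice in all, with PO mouse 3 above them. The median feature had 10 of 15 mice below all controls as deposited, and 7.41% of features had at least 12. A whole group lay below all controls for 3.8% of features in ADI mice and for 71.3% in PC mice, whose arrays were dim throughout. H2-K2 averaged 4.40 ± 0.30 in ADI mice, 4.14 ± 0.94 in PC mice, 3.69 ± 1.91 in PO mice, 4.16 ± 0.10 in PCS mice, 4.50 ± 0.19 in POS mice and 5.03 ± 0.26 in control mice (centred log2, SD, n = 3 each). On that scale 13 of 15 exposed mice lay below all controls, PC mouse 3 and PO mouse 3 lay within their range, and none lay above it. Over all features the median was 5 mice below all controls, and 9.20% of features had at least 13.

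**Figure D1:**
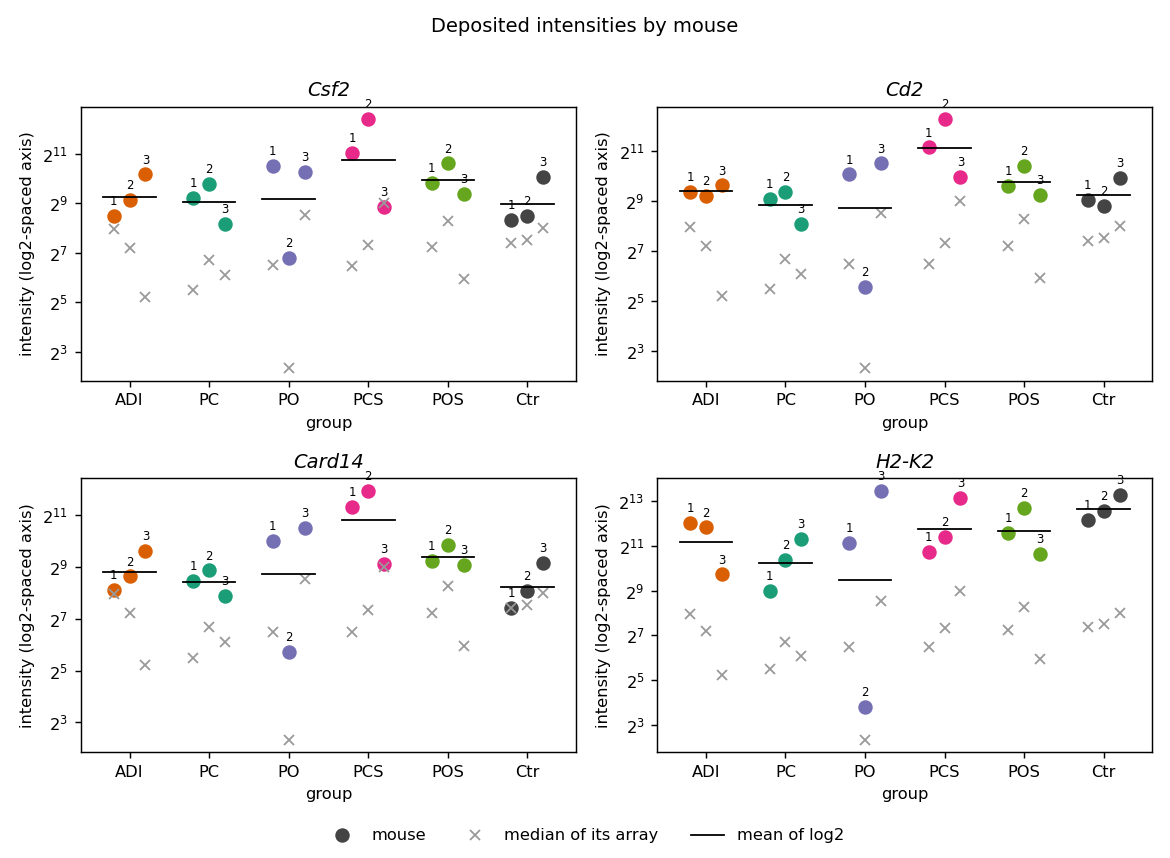
Deposited intensity of each gene on a log2-spaced axis by group, with each mouse as a numbered point, the median of its array as a cross and the mean of the log2 values as a line. PCS mice 1 and 2 are the highest for Csf2, Cd2 and Card14, PCS mouse 3 is near the controls, and PO mouse 2 is the lowest for all 4 genes.

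**Figure D2:**
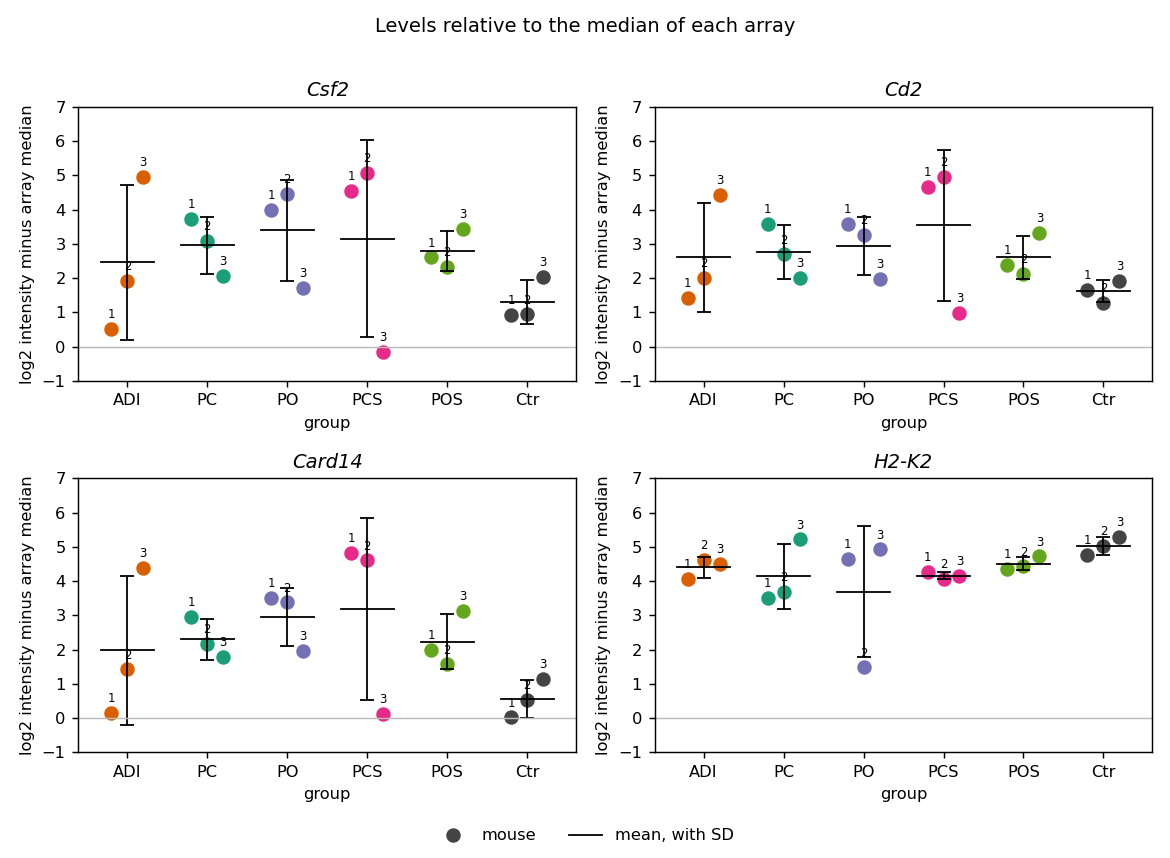
Log2 intensity minus the median of the same array by group, with each mouse as a numbered point, the mean as a line and the SD as an error bar (n = 3). Csf2 is above all controls in 11 of 15 exposed mice and Cd2 and Card14 in 13 of 15, and H2-K2 is below all controls in 13 of 15. The median feature has 4 exposed mice above and 5 below all controls. At least as many mice lie above for 11.9% of features (Csf2) and 3.76% (Cd2, Card14), and below for 9.20% (H2-K2).

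On the centred scale the groups separated from the controls for several members at once. All 3 PC mice and all 3 POS mice were above all controls for Csf2, Cd2 and Card14. The share of features separated upward in this way was 14.1% for PC and 12.4% for POS. In PO mice the same was true of Cd2 and Card14 against 10.7% of features. H2-K2 was separated downward in ADI mice, where 9.66% of features were, in PCS mice, where 13.2% were, and in POS mice, where 15.2% were. These background shares are large, and the 5 comparisons share their 3 control arrays.

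The order of the groups depended on the scale. As deposited, the mean log2 level ran PCS, POS, ADI, PO, PC, Ctr for Csf2 and for Card14, and PCS, POS, ADI, Ctr, PC, PO for Cd2. Neighbouring groups in these orders differed by less than the pooled SD of the pair, except PCS and POS for Cd2, with a gap of 1.38 against an SD of 0.91, and for Card14, with a gap of 1.41 against 1.08. For H2-K2 the order was Ctr, PCS, POS, ADI, PC, PO, with every neighbouring gap within the spread. By centred level the controls were the lowest group for Csf2, Cd2 and Card14 and the highest for H2-K2. There the gap between POS and Ctr was 0.99 against a pooled SD of 0.50 for Cd2. For H2-K2 it was 0.53, with Ctr the higher, against 0.23, and the gap between ADI and PCS was 0.24 against 0.22. All other neighbouring gaps were within the spread.

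Csf2, Cd2 and Card14 moved together from mouse to mouse on both scales, whereas the relation of H2-K2 to them changed sign with the scale. Over the 18 arrays, Pearson's r of centred levels was 0.96 between Csf2 and Cd2, 0.97 between Csf2 and Card14, and 0.97 between Cd2 and Card14, with Spearman's rho of 0.97, 0.96 and 0.95. Without PO array 2 all of these r values were 0.97. For H2-K2, r was -0.38 with Csf2 and -0.29 with each of Cd2 and Card14 after centring, but 0.40 with Csf2, 0.65 with Cd2 and 0.48 with Card14 as deposited. These values are descriptions, since the points share array brightness and come in groups of 3. For Csf2, 94 of the other 5020 features (1.87%) reached an r of 0.9, and the numbers were 88 for Cd2, 84 for Card14 and 99 for H2-K2. As deposited it was 2901 for H2-K2 and 67, 51 and 65 for Csf2, Cd2 and Card14.

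Likeness was measured as Pearson's r of centred levels over the 18 arrays, among the 43 named genes with a value on every array. The most like Csf2 were the adhesion gene Cadm2 (0.996), the guanine nucleotide exchange factor gene Rasgef1a (0.99) and the activin receptor gene Acvr1b (0.98). The most like Cd2 were the replication gene Orc5 (0.97), Acvr1b (0.97) and Card14 (0.97). The most like Card14 were the splicing factor gene U2af2 (0.99), Acvr1b (0.99) and Tmem145 (0.99). The most like H2-K2 were Acat3, Nyap1 and Glcci1, at 0.93, 0.91 and 0.91, and at 0.76, 0.75 and 0.69 without PO array 2. The ranking for H2-K2 depended on PO array 2: Sv2b, at 0.76 over all arrays, was the most like it without that array, at 0.82. As deposited, Cadm2, Card14 and U2af2 ranked first for Csf2, Cd2 and Card14. For H2-K2, Sv2b ranked first as deposited (0.995) and Acat3 second.

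The centred levels of Csf2, Cd2 and Card14 were higher on dim arrays. This is partly built into the scale, since subtracting the array median raises any gene on dim arrays whose intensity does not follow brightness. On the 6 dimmest arrays, which were ADI 3, PC 1, PC 3, PCS 1, PO 2 and POS 3, the median centred level was 4.09 for Csf2, 3.45 for Cd2 and 3.26 for Card14. On the 6 brightest, which were ADI 1, PCS 3, PO 3, POS 2, Ctr 2 and Ctr 3, it was 1.33, 1.67 and 0.84. In deposited intensities the same medians for Csf2 were 628.5 on the dimmest arrays and 756.5 on the brightest, with overlapping ranges. H2-K2 followed brightness instead: its median intensity was 1228.5 on the dimmest arrays and 7829.5 on the brightest, while its centred level was 4.39 and 4.68. Over the 18 arrays the SD of the deposited log2 intensity was 1.28 for Csf2, 1.36 for Cd2, 1.44 for Card14 and 2.20 for H2-K2, and 1.73 for the median feature. After centring, the SDs were 1.58, 1.20, 1.54 and 0.86, with 0.69 for the median feature. The part of brightness in the group differences was not tested.

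**Figure D3:**
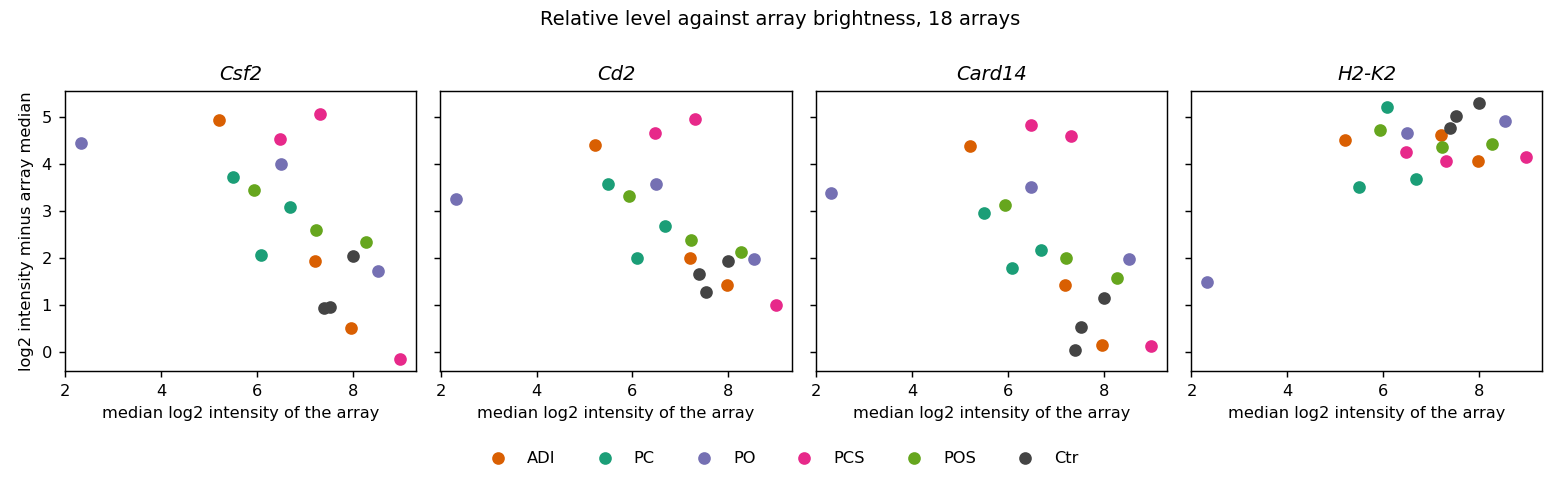
Centred level of each gene (log2 intensity minus array median) against the median log2 intensity of the same array, with the 18 arrays coloured by group. Csf2, Cd2 and Card14 are mostly higher on dim arrays, with PCS mice 1 and 2 above other arrays of like brightness. H2-K2 lies between 3.51 and 5.29 except on PO array 2, where it is at 1.49.

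ADI was set against Ctr to ask about the pesticide mixture. No member passed the test in limma (adjusted p under 0.05), in this or any other of the 10 comparisons and on either scale, and neither did any other feature (0% of 5021 in each). At an unadjusted p under 0.05 limma called 1 to 523 features as deposited and 15 to 1039 centred, by comparison. Weighting the arrays by weights estimated in limma changed these calls: 19 of the 40 member differences then passed, and up to 4330 features did. The estimation of those weights did not converge, with weights from 1.57e-11 for PO array 1 to 4970 for ADI array 2. PCS array 2 had 837 and POS array 1 had 581.2, and the other ADI, PCS and POS arrays had weights under 1. In these 3 groups the weighted values and their p-values thus rest almost wholly on 1 mouse each. For ADI the log2 difference as deposited was 0.31 for Csf2, 0.14 for Cd2 and 0.58 for Card14, and -1.48 for H2-K2 (limma adjusted p between 0.889 and 0.960). The median feature differed by -0.90. The centred differences were 1.15, 0.99, 1.42 and -0.63, each with a limma adjusted p of 1.00. Without ADI array 3, the centred differences were -0.089 for Csf2, 0.083 for Cd2 and 0.22 for Card14. With array weights, under which 45.9% of features passed, Card14 was at 0.64 and H2-K2 at -0.70 as deposited (limma adjusted p of 0.0254 and 0.0266).

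PC was set against Ctr for conventional potatoes without storage. As deposited, Csf2 differed by 0.10, Cd2 by -0.41, Card14 by 0.19 and H2-K2 by -2.44 (95% interval -5.89 to 1.01), where the median feature differed by -1.55. The limma adjusted p was 0.559 for H2-K2 and at least 0.795 for the others. With only these 2 groups in the model, limma gave H2-K2 an adjusted p of 0.00725 and called 3519 features (70.1%), 3447 of them lower. In the same model with centred arrays, no member passed. With array weights, under which 86.2% of features passed, the difference of H2-K2 was -1.72 (limma adjusted p = 0.00029) and that of Cd2 was -0.69 (limma adjusted p = 0.0436). The centred differences were 1.65 for Csf2, 1.14 for Cd2, 1.74 for Card14 and -0.89 for H2-K2 (limma adjusted p of 0.811 to 0.813).

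For organic potatoes without storage the comparison was PO against Ctr. The means as deposited hide a wide spread, since PO mice 1 and 3 had 1438 and 1218 for Csf2 and PO mouse 2 had 110. The differences were 0.23 for Csf2, -0.54 for Cd2, 0.53 for Card14 and -3.20 for H2-K2 (limma adjusted p of 0.876, 0.714, 0.723 and 0.344), where the median feature differed by -1.98. Without PO array 2 they were 1.43, 1.03, 2.05 and -0.37. Without PO array 3, H2-K2 was at -5.19 with a limma adjusted p of 0.0269, in a fit that called 2936 features (58.5%), all lower. The centred differences were 2.09, 1.32, 2.39 and -1.34 (limma adjusted p of 0.325, 0.392, 0.244 and 0.272). Without PO array 2 the centred difference of H2-K2 was -0.24.

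PCS was set against Ctr for conventional potatoes under storage. Among the 5 comparisons with Ctr this held the largest differences of Csf2, Cd2 and Card14 as deposited, and they were nearly the same on both scales, since the median feature differed by -0.16. Csf2 differed by 1.80 (SE 1.22), Cd2 by 1.87 (SE 1.21) and Card14 by 2.58 (SE 1.23, 95% interval 0.017 to 5.14). The centred values were 1.85, 1.92 and 2.62. The unadjusted p of Card14 was 0.049 as deposited and 0.034 centred, but the limma adjusted p over all features was 1.00 and 0.868. H2-K2 differed by -0.92 as deposited and -0.87 centred (limma adjusted p of 1.00 and 0.887). Without PCS array 3, the centred differences of Csf2, Cd2 and Card14 were 3.50, 3.19 and 4.15, and without PCS array 2 they were 0.89, 1.21 and 1.91. With array weights, which gave PCS array 2 a weight of 837 and the other PCS arrays weights under 1, 65.5% of features passed. The weighted differences as deposited were 3.68 for Csf2, 3.15 for Cd2 and 3.93 for Card14, and that of H2-K2 was -1.14 (limma adjusted p of 2.93e-10, 1.14e-10, 2.91e-11 and 0.00051).

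POS was set against Ctr for organic potatoes under storage. Csf2 differed by 0.99, Cd2 by 0.49, Card14 by 1.17 and H2-K2 by -1.02 as deposited, where the median feature differed by -0.53, and the limma adjusted p was 0.999 for each. The centred differences were 1.49, 0.99, 1.67 and -0.53 (limma adjusted p of 0.919, 0.923, 0.919 and 0.954). Without POS array 3, the array of the mouse sampled on day 27, H2-K2 was at -0.53 as deposited. With array weights, under which 61.8% of features passed in this comparison, all 4 members did, at 1.12, 0.49, 1.22 and -0.95 (limma adjusted p of 0.00129, 0.0492, 0.000183 and 0.00335).

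Set among all 5021 features, the difference of Card14 from the controls lay between the 96.1 and 98.7 percentile in the 5 exposures. That of Csf2 lay between 94.6 and 96.0, that of Cd2 between 89.4 and 96.1, and that of H2-K2 between 6.05 and 17.4. These ranks share the control arrays and are the same on both scales, since centring moves all features of an array alike.

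**Figure D4:**
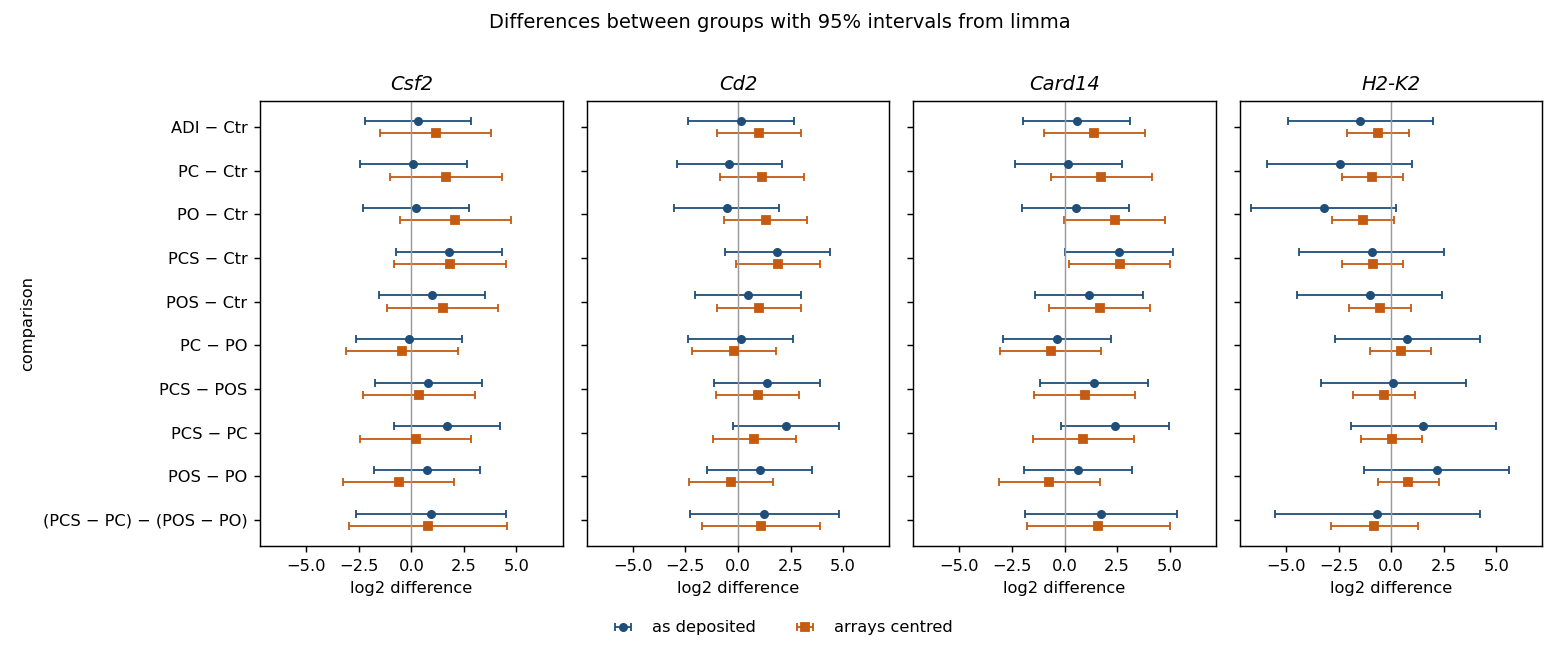
Log2 difference of each gene in the 10 comparisons, as deposited (circles) and with arrays centred on their medians (squares), with 95% intervals from limma over all 18 arrays. All intervals span 0 except those of Card14 in PCS against Ctr, on both scales.

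Storage was compared within each cultivation system. For conventional potatoes, all 3 PCS mice were above all PC mice for Cd2, at 1002 to 4937 against 271 to 664, and for Card14, at 554 to 3876 against 235 to 464. For 19.4% of all features PCS was separated upward from PC. By centred level neither gene was separated. PCS mouse 3, at 0.98 for Cd2 and 0.13 for Card14, then lay below all PC mice. The differences as deposited were 1.70 for Csf2, 2.28 for Cd2, 2.39 for Card14 and 1.52 for H2-K2 (limma adjusted p of 0.567 for each), where the median feature differed by 1.38. Centred, they were 0.20, 0.78, 0.89 and 0.020 (limma adjusted p of 1.00 for each). Leaving out 1 array at a time moved the centred difference of Cd2 between 0.070 and 2.06 and that of Card14 between 0.065 and 2.42. With array weights, under which 80.7% of features passed, Csf2, Cd2 and Card14 did, at 3.83, 3.84 and 3.81 (limma adjusted p of 1.51e-09, 1.11e-10 and 2.66e-10). For organic potatoes, POS against PO, the differences as deposited were 0.76, 1.03, 0.64 and 2.18, where the median feature differed by 1.54. Those of Csf2, Cd2 and Card14 turned negative after centring, at -0.60, -0.33 and -0.72, while H2-K2 was at 0.82 (limma adjusted p between 0.590 and 0.874). As deposited without PO array 2, all 4 members were negative, at -0.44, -0.54, -0.88 and -0.66. The difference of the median feature without that array was not calculated, so the part of array brightness in these values was not tested.

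The cultivation systems were compared with and without storage. With storage, PCS against POS, Csf2 differed by 0.81, Cd2 by 1.38, Card14 by 1.41 and H2-K2 by 0.11 as deposited, and by 0.36, 0.93, 0.96 and -0.34 centred (limma adjusted p of 1.00 for each). Leaving out 1 array at a time moved the centred difference of Cd2 between 0.22 and 2.21 and that of Card14 between 0.14 and 2.49. By centred level all 3 PCS mice, at 4.07 to 4.26, were below all 3 POS mice, at 4.36 to 4.72, for H2-K2, a separation seen downward in 3.37% of features. With array weights, under which 80.3% of features passed in PCS against POS, all 4 members did, at 2.56, 2.67, 2.71 and, for H2-K2 with its sign reversed, -0.20 (limma adjusted p of 7.11e-17, 1.73e-18, 3.84e-18 and 0.0252). That fit sets little more than PCS mouse 2 (weight 837) against POS mouse 1 (weight 581.2), so its p-values do not measure the spread between mice. Without storage, PC against PO, the differences were -0.13, 0.13, -0.34 and 0.76 as deposited and -0.44, -0.18, -0.65 and 0.45 centred (limma adjusted p of at least 0.806). The interaction, which sets the storage difference of conventional potatoes against that of organic ones, was 0.94 for Csf2, 1.26 for Cd2, 1.75 for Card14 and -0.65 for H2-K2 as deposited (limma adjusted p of 1.00). The 95% interval for Card14 ran from -1.87 to 5.37.

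The authors' deposited table gives a log2 fold change for each exposed mouse against the mean of the controls, and 0 in the exposures not given here. For Csf2 the authors' deposited table gives 2.59, 2.78 and 2.84 in PCS mice and 0.82, 0.69 and 0.95 in POS mice. For Cd2 the authors' deposited table gives 2.14, 1.91 and 0.96 in PCS mice and 0.59, 0.53 and 0.23 in POS mice. For Card14 the authors' deposited table gives 2.44, 2.62 and 2.45 in PCS mice and 0.34, 0.41 and 0.20 in POS mice. For H2-K2 the authors' deposited table gives -0.80, -0.87 and -0.96 in ADI mice and -1.87, -2.06 and -1.13 in PC mice. Its header says that folds between 0.5 and 2 were set to 0. Yet 13 of the 24 non-zero values of these genes in the authors' deposited table lie between -1 and 1 on the log2 scale. All those of POS and ADI mice are among them. Over all named genes in the authors' deposited table, 93 of 285 non-zero values lie in that range.

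The deposited intensities do not give these folds. The log2 ratio of the intensity to the control mean for Csf2 was 1.84, 3.21 and -0.33 in PCS mice 1 to 3. For Card14 it was 2.93, 3.54 and 0.73, and for H2-K2 it was -3.75, -2.37 and -1.44 in PC mice. In the authors' deposited table the 3 mice of a group lie much closer together: the SD of the log2 values of Csf2 in PCS mice is 0.13 there and 1.79 in the intensities. For Card14 in PCS mice it is 0.10 in the authors' deposited table and 1.48 in the intensities, and for H2-K2 in ADI mice 0.081 and 1.28. The mean log2 fold of Csf2 in PCS mice is 2.73 in the authors' deposited table against a mean log2 ratio of 1.57 in the intensities.

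Each non-zero fold of these genes in the authors' deposited table can be written as a whole number divided by a control mean, within a relative tolerance of 1e-11. The control mean behind the folds was 343 for Csf2, 515 for Cd2, 467 for Card14 and 5544.3 for H2-K2. With these, all 24 non-zero folds gave whole numbers, and 11 of the 24 were equal to the deposited intensity of the same mouse, such as 2062 for Csf2 in PCS mouse 1 and 2537 for H2-K2 in PC mouse 3. The other 13 differed from it by a multiple of 100, and 12 of these 13 in a single digit. For Csf2 the number behind the fold was 2350 in PCS mouse 2, where the deposited intensity is 5350, and 2457 in PCS mouse 3, where it is 457. For Cd2 it was 1937 in PCS mouse 2, against a deposited 4937. For Card14 it was 2876 in PCS mouse 2, against 3876, and 2554 in PCS mouse 3, against 554. For H2-K2 it was 2846 in ADI mouse 3, against 846, and 1512 in PC mouse 1, against 512.

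The control sums differed in the same way. The sum of the 3 controls behind the folds was 1029 for Csf2, 1545 for Cd2, 1401 for Card14 and 16633 for H2-K2, whereas the deposited control intensities add up to 1729, 1945, 1001 and 20633. The differences were -700, -400, 400 and -4000. Among 35 other named genes whose folds could be read in this way, 64 of 188 cells were equal and 110 of the 124 unequal ones differed by a multiple of 100. Which of the tables holds the values as scanned, and why they differ, was not tested, and each test above rests on the intensity table.

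**Figure D5:**
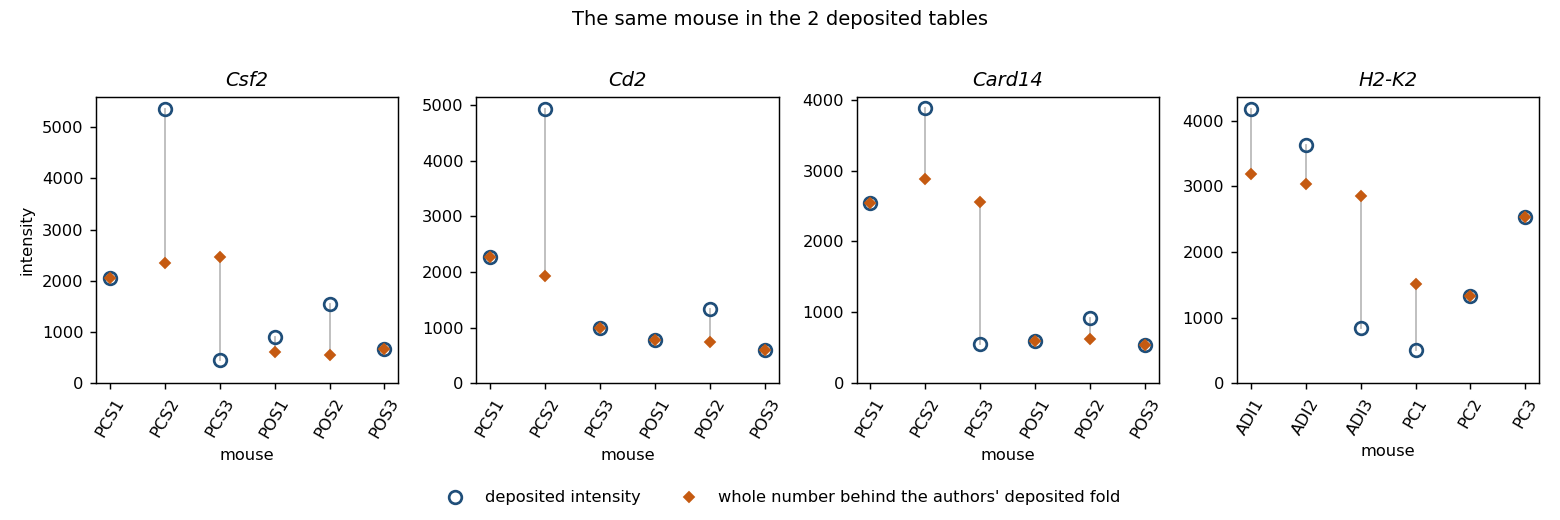
Deposited intensity (open circles) and the whole number behind the authors' deposited fold (diamonds) for the same mouse, for the exposures in which the authors list each gene. The symbols coincide in 11 of 24 mice and differ by a multiple of 100 in the other 13, with the widest gaps in intensity units at PCS mouse 2 for Csf2 and Cd2.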

How the data were processed

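RNA of 18 mice was read from arrays with Agilent Feature Extraction, per the submitters' processing notes, which as used here give no version, signal column or background step. The authors deposited whole-number intensities, linear and not visibly scaled, with 432 cells at or below 0. A second table of the authors gives log2 fold changes of 51 genes in each mouse, per the file headers.

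Intensities were set to at least 1 and log2 transformed. Over the 5021 features with no blank cell, limma 3.58.1 (R 4.3.3) fitted 6 group means, with eBayes, Benjamini-Hochberg adjustment over all 5021 and a threshold of 0.05, in 10 comparisons. The fit was tested on simulated data with independent values and no differences in array brightness, so that test does not cover the effect of brightness. All members are named in the text, with the 3 named genes most like each. The whole numbers behind folds come from the smallest control sum that made all of a gene's numbers whole, with denominators up to 200000. Members, lists and tests were chosen with earlier results of these data known. Other software was Python 3.11.15 with numpy 2.4.6 and pandas 2.3.3. Sequences and coordinates were not used here. Labels name each mouse as a separate individual and give no batch. Replicate numbers were not used as pairs. Deviations of same-numbered mice correlated between -0.76 and 0.61 over 45 pairs, with a median of 0.065 and 19 over 0.1. Those of differently numbered mice correlated between -0.63 and 0.80 over 90 pairs, with a median of -0.030 and 29 over 0.1. The ranges overlap, and shared handling by number was not tested. The number of arrays limits the precision.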

Additional observations from a re-analysis of the deposited data

How the results depend on the processing

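Of 968 values of the 40 member differences under alternatives, 841 kept their direction, but many of these could not change it. All features, only features with a median of at least 64, eBayes with trend, and the replicate number as a block cannot change the differences. Nor can a fit of only the compared groups on a given scale. Apart from the fits of only the compared groups, these settings called 0 features in every comparison. A floor of 16 reversed none and also called 0 features in every comparison. Of the 40 differences, centring and scaling to the 75th percentile each reversed 7, quantile normalization 8 and array weights 11. The replicate block is no paired analysis, since the labels name each mouse as a separate individual and give no pairing. The cause of the reversals below was not tested.

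With centred arrays, Cd2 was reversed to 1.14 in PC minus Ctr, 1.32 in PO minus Ctr, -0.18 in PC minus PO and -0.33 in POS minus PO, H2-K2 to -0.34 in PCS minus POS, and Csf2 to -0.60 and Card14 to -0.72 in POS minus PO, also with only the compared groups in the fit. Scaled to the 75th percentile, these were 1.20, 1.77, -0.58, -0.76, -0.28, -1.03 and -1.15. With quantile normalization they were 1.11, 1.84, -0.73, -0.89, -0.24, -0.98 and -1.26, and H2-K2 in PC minus PO was at -0.23.

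With only the compared groups in the fit, as deposited, limma called 1 feature in ADI minus Ctr, 3519 in PC minus Ctr, 1 in PCS minus Ctr, 11 in POS minus Ctr and 1 in PCS minus PC. The estimation of array weights did not converge, with weights from 1.57e-11 to 4970. They gave 2306 called features in ADI minus Ctr, 4330 in PC minus Ctr, 3291 in PCS minus Ctr, 3103 in POS minus Ctr, 4031 in PCS minus POS and 4051 in PCS minus PC, and 0 in the other 4 comparisons. Of the 40 member differences 19 passed, 18 in the direction given in the report and 1 reversed. Those reversed, 11 in all, were Csf2 at -0.15 in PC minus Ctr, Cd2 at 1.34 and H2-K2 at 0.84 in PO minus Ctr, Cd2 at -2.03 and H2-K2 at -2.56 in PC minus PO, H2-K2 at -0.20 in PCS minus POS (limma adjusted p = 0.0252), Csf2, Cd2, Card14 and H2-K2 at -0.40, -0.86, -1.25 and -1.79 in POS minus PO, and H2-K2 at 2.36 in the interaction.

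Leaving out each array in turn, on both scales, called 0 to 2936 features in PO minus Ctr (the highest without PO array 3), 0 to 3 in PC minus PO, and 0 to 1 in ADI, PC, PCS and POS minus Ctr and in POS minus PO. Over both scales together, member differences that were reversed without some array ranged as follows. In ADI minus Ctr, Csf2 lay between -0.14 and 2.13 and Cd2 between -0.088 and 1.59. In PC minus Ctr, Csf2 lay between -0.26 and 2.10 and Card14 between -0.21 and 2.02. Cd2 in PC minus Ctr was reversed by centring but by no left-out array. It lay between -0.68 and -0.032 as deposited and between 0.72 and 1.52 centred. In PO minus Ctr, Csf2 lay between -0.43 and 2.92, Cd2 between -1.43 and 1.80 and Card14 between -0.35 and 2.88. In PC minus PO, Csf2 lay between -1.33 and 0.53, Cd2 between -1.44 and 1.02, Card14 between -1.86 and 0.54 and H2-K2 between -2.07 and 2.75. In PCS minus POS, Csf2 lay between -0.60 and 2.01 and H2-K2 between -0.59 and 0.63. In PCS minus PC, Csf2 lay between -0.76 and 2.65 and H2-K2 between -0.30 and 2.06. In POS minus PO, Csf2 lay between -1.44 and 1.41, Cd2 between -0.81 and 1.92, Card14 between -1.21 and 1.52 and H2-K2 between -0.66 and 4.17. In the interaction, Csf2 lay between -0.16 and 2.45 and H2-K2 between -2.65 and 2.18. The differences of Csf2, Cd2, Card14 and H2-K2 in PCS minus Ctr and in POS minus Ctr kept their direction whichever array was left out. So did those of H2-K2 in ADI, PC and PO minus Ctr and of Card14 in ADI minus Ctr. The same held for Cd2 and Card14 in PCS minus PC, in PCS minus POS and in the interaction.

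With values as deposited, the 3 genes most like each member after centring ranked 1, 2 and 4 for Csf2, 3, 9 and 1 for Cd2, 1, 5 and 2 for Card14, and 2, 4 and 6 for H2-K2.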

Other observations

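A list of 61 genes related to the members covered GM-CSF signalling, the CARD, BCL10 and MALT1 complex with NF-kB, and CD2 ligands with the T cell receptor. It also covered class I antigen presentation, and interferon and epithelial defence. Of these genes, 3 carry a name in the authors' deposited table. Whether unnamed array features probe the others was not tested. All 3 lie in features with a blank cell, so they were not fitted. Trbv13-1, a variable segment of the T cell receptor beta chain, stands in the authors' deposited table at a mean log2 fold of -0.85 in ADI mice and -1.86 in PC mice. H2-K2 has non-zero folds in the same exposures and with the same sign, at -0.88 and -1.69 in the authors' deposited table. How many of the 51 named genes share this pattern was not counted. The authors chose these genes on the same samples, so the likeness is not independent evidence. The folds of H2-K2 are also not those of its deposited intensities. Plscr1, an interferon-inducible phospholipid scramblase gene, stands at -1.91 and S100a14, an epithelial calcium-binding protein gene, at -1.56 in PC mice in the authors' deposited table, and both are at 0 in the other 4 exposures.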
